A study of Mus musculus with 26 samples.

Results

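The proteasome genes described here are the 35 rows, of 15249 genes in the deposited count table, whose symbol starts with Psma, Psmb, Psmc or Psmd and a digit, with Psmb5, Psmb8 and Psmb9 left out. No row of the table had a pseudogene name of this kind. They are 7 genes of the alpha ring and 6 of the beta ring of the 20S core, 9 of the base and 8 of the lid of the 19S cap, 3 chaperones that help assemble the base (Psmd5, Psmd9 and Psmd10), the inducible beta subunit Psmb10, and Psmc3ip. Psmb10 is taken in by the symbol rule although it belongs to the immunoproteasome. Psmc3ip is a factor of meiotic recombination that shares the start of its name with Psmc3 and is no proteasome subunit, so 34 of the 35 genes encode parts or assembly factors of the proteasome. Psma8 and Psmb11, tissue-specific subunits of testis and thymus, were looked for and are not analysed here.

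The 26S proteasome is the protease that degrades proteins marked with ubiquitin. The 19S cap binds the ubiquitin chain, removes it and threads the unfolded substrate, driven by a ring of ATPases, into the 20S core, where 3 kinds of active site inside the beta rings cut it. Psmb6, Psmb7 and Psmb5 carry these sites, and Psmb9, Psmb10 and Psmb8 take their places in the immunoproteasome. In heart muscle the proteasome removes damaged and misfolded proteins and turns over parts of the sarcomere.

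RNA of the left ventricle was sequenced after depletion of ribosomal RNA in 26 libraries from mice of C57BL6 background. Mst1Gal3 (5 libraries) combined overexpression of the Hippo kinase Mst-1, encoded by Stk4, with knockout of galectin-3, encoded by Lgals3. MstTg (7) had the overexpression alone, Gal3Ko (8) the knockout alone, and wt (6) neither. The design text calls the Mst-1 mouse a model of dilated cardiomyopathy. The sources used here do not give the promoter of the transgene, the age and sex of the mice, or whether each library is a separate animal, so p-values measure the spread between these libraries. Levels are CPM (counts scaled to a common library size) on TMM-scaled library sizes, and differences are log2 fold changes ± SE of 1 edgeR quasi-likelihood fit over all 15249 genes, called where the Benjamini-Hochberg adjusted p is under 0.05.

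Library totals were 18580405 to 32663735 counts. Stk4 averaged 949 CPM ± 74.7 (SD) in MstTg and 23.6 ± 1.27 in wt, and 977 ± 119 in Mst1Gal3 and 23.3 ± 1.83 in Gal3Ko. Lgals3 averaged 3.91 CPM ± 1.04 in Mst1Gal3 and 55.2 ± 3.39 in MstTg, but 2.14 ± 0.369 in Gal3Ko and 1.64 ± 0.495 in wt, so Lgals3 counts alone do not tell Gal3Ko from wt libraries. Replicate 4 of Mst1Gal3 had the highest CPM of its group for 27 of the 35 genes, and for 27.9% of all genes. Replicate 5 of MstTg had the highest for 22 of the 35, and for 24.3% of all genes. Where a result without either library is given, it stands beside that of all libraries. Cardiomyocyte markers (Myh6, Myl2, Tnnt2 and 5 others) were counted in every library, with summed levels of 34465 to 59266 CPM. Genes of the atrium (Myl7, Myl4 and Sln) summed to over 30 CPM in 6 libraries, MstTg 5, Mst1Gal3 3, Gal3Ko 4, 5 and 8 and wt 5.

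Promoter windows are shown for the genes the results turn on that have one in the RefSeq table, from 250 bases before to 50 after the start of the gene (GRCm38.p6, 5′ to 3′ on the gene's strand). They are Psmd8 (chr7:29180624-29180923, minus strand), Psmd11 (chr11:80428365-80428664, plus strand) and Psmb10 (chr8:105938343-105938642, minus strand), which rose most with Mst-1, Psmd12 (chr11:107479278-107479577, plus strand), the lid gene that fell, and Psmb5 (chr14:54617946-54618245, minus strand), which fell in the knockout. Capitals mark the core of the antioxidant response element, TGACNNNGC on either strand, the element bound by Nrf factors with small Maf partners.
Psmd8: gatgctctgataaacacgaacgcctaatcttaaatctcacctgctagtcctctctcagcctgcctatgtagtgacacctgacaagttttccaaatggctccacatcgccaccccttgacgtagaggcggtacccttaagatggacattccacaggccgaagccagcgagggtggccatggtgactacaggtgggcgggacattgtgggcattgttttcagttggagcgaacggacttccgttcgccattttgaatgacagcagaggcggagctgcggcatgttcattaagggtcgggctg
Psmd11: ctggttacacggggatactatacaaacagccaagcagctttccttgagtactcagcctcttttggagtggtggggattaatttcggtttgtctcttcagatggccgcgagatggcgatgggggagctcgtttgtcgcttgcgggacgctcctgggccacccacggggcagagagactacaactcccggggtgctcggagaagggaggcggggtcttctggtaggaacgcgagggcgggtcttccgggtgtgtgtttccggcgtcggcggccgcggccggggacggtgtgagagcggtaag
Psmb10: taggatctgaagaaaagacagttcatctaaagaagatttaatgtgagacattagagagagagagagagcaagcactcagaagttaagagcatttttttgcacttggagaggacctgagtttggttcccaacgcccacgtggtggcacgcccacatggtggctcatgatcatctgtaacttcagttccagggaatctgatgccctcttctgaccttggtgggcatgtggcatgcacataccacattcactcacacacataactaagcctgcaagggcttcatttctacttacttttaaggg
Psmd12: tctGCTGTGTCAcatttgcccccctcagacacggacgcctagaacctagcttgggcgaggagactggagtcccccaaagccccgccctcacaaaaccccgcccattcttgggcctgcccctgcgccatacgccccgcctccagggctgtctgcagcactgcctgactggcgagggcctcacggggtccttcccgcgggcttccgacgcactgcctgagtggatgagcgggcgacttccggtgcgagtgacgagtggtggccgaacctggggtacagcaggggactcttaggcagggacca
Psmb5: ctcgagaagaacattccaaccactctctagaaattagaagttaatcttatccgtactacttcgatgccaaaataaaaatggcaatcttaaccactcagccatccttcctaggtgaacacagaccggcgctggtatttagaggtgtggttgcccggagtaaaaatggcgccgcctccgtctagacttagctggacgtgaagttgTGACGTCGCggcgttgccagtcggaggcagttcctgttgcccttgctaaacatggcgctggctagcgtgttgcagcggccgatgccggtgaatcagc
Of the 35 genes 29 had a window, and Psmb1, Psmb2, Psmb7, Psmc3, Psmd3 and Psmd7 had none. The core stood in 4 of the 29 (13.8%), Psmb6, Psmc6, Psmd9 and Psmd12, against 12.5% of 27025 genes with a window. In Psmd12 it is on the minus strand at -247 to -239 from the start, and in Psmb5 on the plus strand at -47 to -39. The looser form TGANNNNGC, which includes the first, stood in 15 of 29 (51.7%) against 41.4% of all genes. The CCAAT box (CCAAT) stood in 12 of 29 (41.4%) against 37.9%. The core of the interferon-stimulated response element stood in 3 of 29 (10.3%), Psmb3, Psmd4 and Psmd9, against 3.49% of all genes. The Psmb10 window did not hold it. Whether these shares differ from those of all genes was not tested. These are matches of letters only, and a window without a match says only that the letters are not in it.

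Per kilobase of exon (basic GENCODE M21 transcripts), the constitutive ring, base and lid genes lay between 11.1 CPM per kb for Psma3 and 69.3 for Psmb6 in wt. The highest levels were those of 3 beta ring genes, 69.3 for Psmb6, 66.7 for Psmb7 and 55.2 for Psmb4, while the other beta ring genes stood at 38.5 (Psmb2), 35.8 (Psmb3) and 15.9 (Psmb1). They were followed by the base scaffold Psmd2 at 54.1 and the ATPase Psmc3 at 51.9. The base chaperones were far lower, at 4.36 CPM per kb for Psmd9, 3.97 for Psmd10 and 3.47 for Psmd5, and Psmc3ip was at 0.811. Lengths depend on the transcripts counted: with all annotated transcripts Psma6 was highest at 45.9, and Psmb6 at 29.5 and Psmb7 at 22.6 ranked 7 and 9. The genes varied little between libraries of a group. Their median coefficient of variation was 8.03% in Mst1Gal3, 6.57% in MstTg, 7.12% in Gal3Ko and 5.67% in wt, against 10.8, 11.8, 11.6 and 11.7% over all genes of the same groups.

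**Figure D1:**
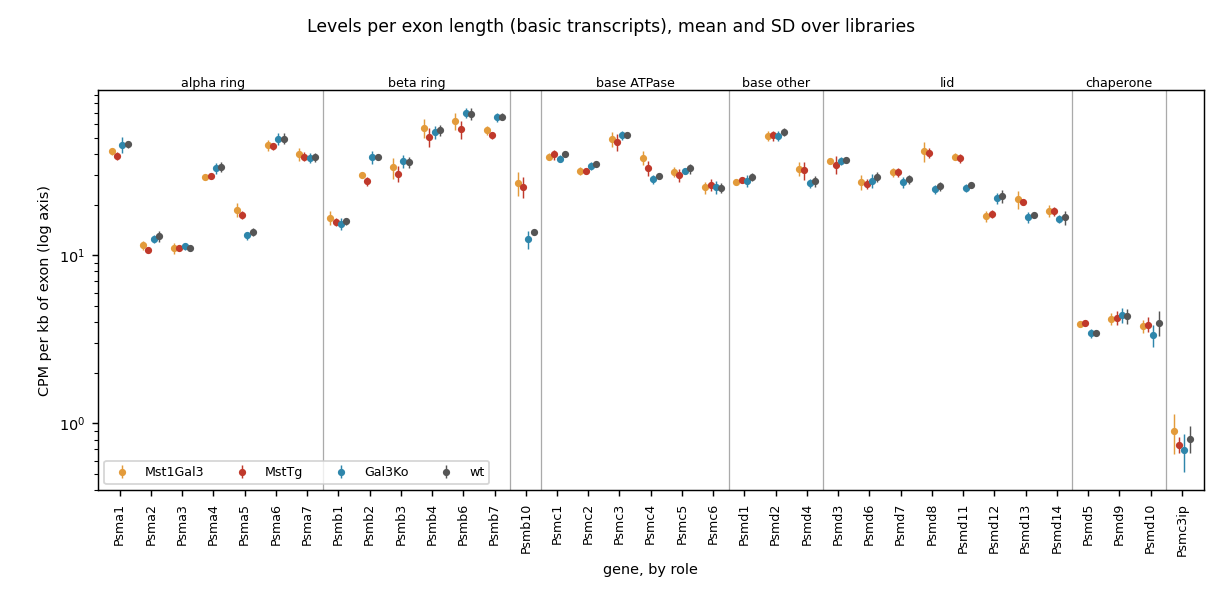
Level of each gene in CPM per kb of exon (log axis, basic transcripts) in the 4 groups, as mean and SD over libraries, with genes ordered by role. Ring, base and lid genes lie within 11.1 to 69.3 in wt, and the base chaperones lie between 3.47 and 4.36.

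With Mst-1 overexpression some subunits were higher and others lower. In MstTg against wt, 9 of the 35 genes were higher and 10 lower, that is 54.3% called, against 55% of all genes tested, 28.2% higher and 26.8% lower. In Mst1Gal3 against Gal3Ko, 10 were higher and 4 lower, 40% against 52.5% of all genes, of which 26.9% were higher and 25.6% lower. The share called is therefore near the background in the first comparison and below it in the other. The summed level of the 35 genes was 1734 CPM ± 88.2 in MstTg and 1742 ± 56.1 in wt, and 1785 ± 111 in Mst1Gal3 and 1697 ± 81.5 in Gal3Ko. Changes were small: the median absolute log2 fold change was 0.14 in MstTg against wt, where that of all genes was 0.29, and 0.13 against 0.28 in the galectin-3 knockout. Only 3 of the 35 (8.57%) and 4 of the 35 (11.4%) passed 0.5 in the same comparisons, against 31.4 and 29.7% of all genes. Here too all genes were not matched to the 35 for level.

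These counts depend on the scaling. Scaled by library totals alone, the median of all genes moved to 0.27 in MstTg against wt and 0.24 in Mst1Gal3 against Gal3Ko. The split of the 35 genes became 18 higher and 2 lower, and 24 higher and 1 lower, in the same comparisons. The shares of all genes called on this scale are not given here, so these counts have no background to be read against. Transcripts of the mitochondrial genome took 17.7% ± 2.79 of counts in MstTg and 31% ± 2.36 in wt, and 18.7% ± 2.95 in Mst1Gal3 and 33% ± 3.64 in Gal3Ko. With library sizes computed without them, 9 genes were higher and 9 lower in MstTg against wt, and 10 higher and 4 lower in Mst1Gal3 against Gal3Ko.

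**Figure D2:**
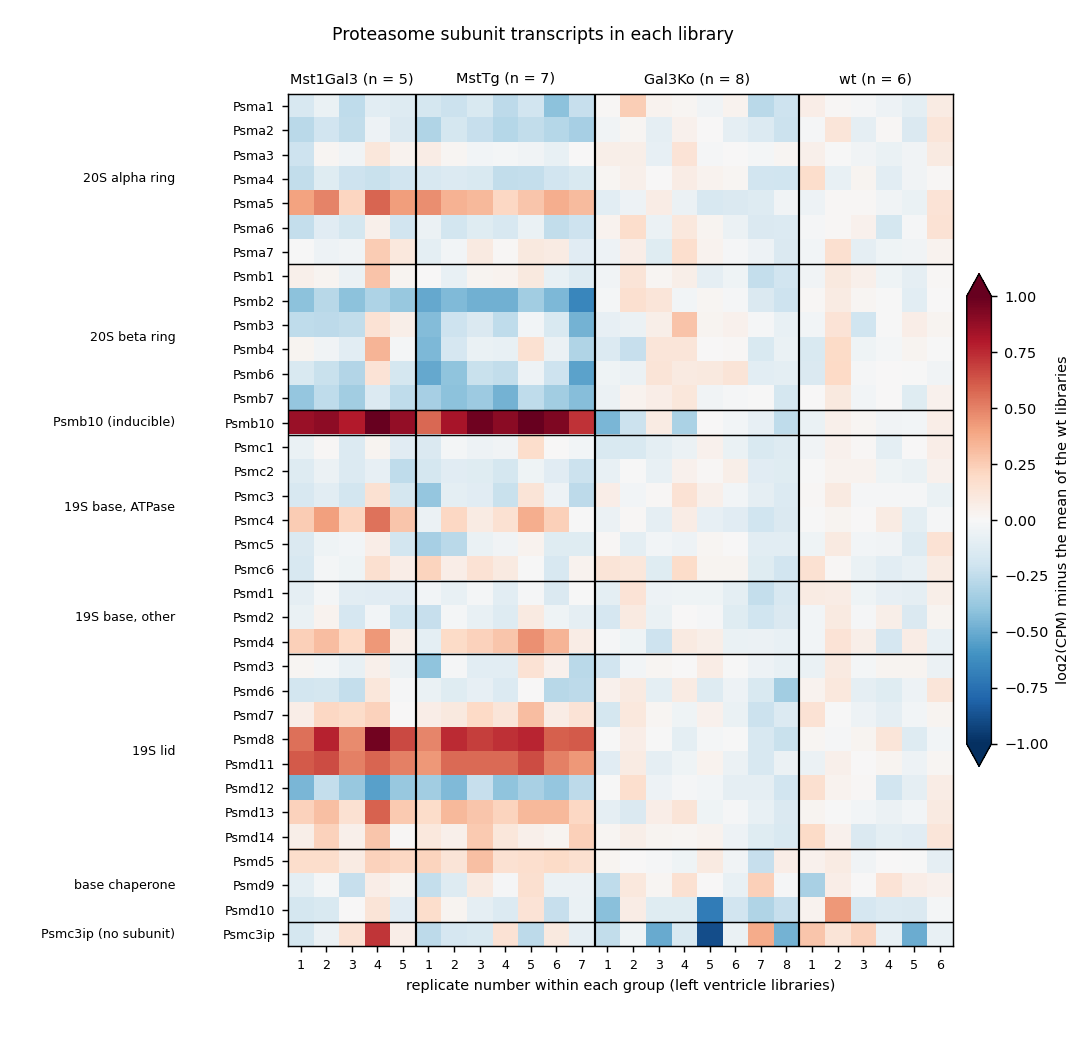
Log2 CPM of the 35 genes (rows, by role) in the 26 libraries (columns, by group and replicate number), minus the mean of the wt libraries of that gene. Psmb10, Psmd8, Psmd11 and Psma5 are above 0 in the 12 libraries with Mst-1, and Psmb2, Psmb7 and Psmd12 are below 0 in them.

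After that of Psmb10, the largest rises were in 2 genes of the lid, the part of the cap that removes ubiquitin. Psmd8 (GRCm38 chromosome 7, 29174188 to 29180701), whose protein joins the lid last and lets it dock on the base, had 79.4, 91 and 95.5 CPM (lowest, median and highest) in MstTg, against 51.7, 56.6 and 61.5 in wt. In the knockout background it had 82.7, 96.3, 78.2, 110 and 89.2 CPM in Mst1Gal3, against 48.5, 55.9 and 59.2 in Gal3Ko. Every library with Mst-1 was above every library without it. Psmd8 rose 1.58-fold in MstTg (log2 fold change 0.66 ± 0.07, adjusted p = 2.84e-10) and 1.68-fold in Mst1Gal3 (0.75 ± 0.07, adjusted p = 2.28e-11).

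Psmd11 (chromosome 11, 80428615 to 80473248), which clamps the lid to the core and the ATPase ring, had 104, 114 and 121 CPM in MstTg, against 74.1, 77.6 and 79.9 in wt. It had 118, 121, 109, 115 and 109 CPM in Mst1Gal3, against 69.1, 74.0 and 81.6 in Gal3Ko. The groups were again apart, with a rise of 0.53 ± 0.05 in MstTg (adjusted p = 2.53e-11) and 0.62 ± 0.05 in Mst1Gal3 (adjusted p = 1.04e-12). Psmd13 (chromosome 7, 140881968 to 140898643), a structural lid subunit, had 39.1, 41.6 and 43.1 CPM in MstTg, against 33.0, 33.9 and 36.5 in wt. In Mst1Gal3 it had 40.3, 42.4, 38.2, 51.7 and 41.2 CPM, against 31.0, 33.1 and 37.6 in Gal3Ko. It rose by 0.27 ± 0.06 (adjusted p = 2.53e-04) and 0.35 ± 0.06 (adjusted p = 7.86e-06), with no overlap in either background.

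Psmd12 (chromosome 11, 107479484 to 107504362) went the other way from its lid neighbours. It had 43.4, 46.3 and 50.3 CPM in MstTg, against 51.7, 60.1 and 66.0 in wt, and 43.0, 50.2, 45.4, 40.6 and 45.5 CPM in Mst1Gal3, against 51.8, 57.6 and 66.2 in Gal3Ko. All libraries with Mst-1 were below those without it in the same background, with changes of -0.35 ± 0.06 (adjusted p = 7.29e-06) and -0.36 ± 0.06 (adjusted p = 8.17e-06). Of the other lid genes, Psmd7, the inactive partner of the deubiquitinase, rose by 0.14 ± 0.06 and 0.20 ± 0.06 (adjusted p = 0.0293 and 0.00418), and Psmd14, the deubiquitinase itself, passed the threshold only in Mst1Gal3 against Gal3Ko (0.15, adjusted p = 0.0458, against 0.12, adjusted p = 0.11, in MstTg against wt). Without any 1 of MstTg 3 or 5, Gal3Ko 6, or wt 3, 4 or 5, Psmd7 missed the threshold in MstTg against wt (0.12 to 0.14, adjusted p = 0.0521 to 0.08). There it also missed the threshold with the compared groups alone and without the libraries with atrial genes. Psmd14 missed it in Mst1Gal3 against Gal3Ko without any 1 of MstTg 4, Mst1Gal3 2 or 4, or Gal3Ko 1, 6, 7 or 8 (0.11 to 0.15, adjusted p = 0.0502 to 0.168). With RLE size factors, DESeq2, the replicate number as a block, or no libraries with atrial genes, Psmd14 also missed the threshold there. Psmd3 and Psmd6 passed it in neither comparison. The 8 lid genes summed to 477 CPM ± 24.3 in MstTg and 417 ± 11.5 in wt, and to 487 ± 28.7 in Mst1Gal3 and 405 ± 19.2 in Gal3Ko.

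In the base, 2 of 9 genes were called higher in both backgrounds. The share of all genes called higher in both is not given here. In the single comparisons 28.2% (MstTg against wt) and 26.9% (Mst1Gal3 against Gal3Ko) of all genes were higher. Psmc4 (chromosome 7, 28041707 to 28050101), an ATPase of the ring, had 41.0, 47.7 and 55.1 CPM in MstTg, against 40.0, 42.8 and 45.2 in wt, which overlap. In Mst1Gal3 it had 51.0, 56.9, 49.6, 62.4 and 52.0 CPM, all above the 37.2, 40.3 and 45.0 of Gal3Ko. Its rise was 0.15 ± 0.06 (adjusted p = 0.0463) and 0.42 ± 0.06 (adjusted p = 1.37e-06), and the difference between the backgrounds was 0.27 ± 0.09 with an interaction adjusted p = 0.172. The first of these calls was lost in 18 of 37 alternatives. In 13 of them a single library was left out (MstTg 2, 4, 5 or 6, Gal3Ko 1, 3, 5 or 6, or wt 1, 2, 3, 5 or 6), with values of 0.11 to 0.15 and adjusted p of 0.0508 to 0.135. The other 5 were RLE size factors, DESeq2, limma-voom, the compared groups alone, and no libraries with atrial genes over 30 CPM.

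Psmd4 (chromosome 3, 95032694 to 95042614), a receptor for ubiquitin chains, had 47.2, 59.2 and 69.4 CPM in MstTg, against 45.0, 51.1 and 55.3 in wt, and 59.6, 62.3, 58.0, 68.2 and 52.6 CPM in Mst1Gal3, against 43.6, 48.7 and 53.8 in Gal3Ko. The groups overlapped, and it rose by 0.22 ± 0.07 (adjusted p = 0.0105) and 0.29 ± 0.07 (adjusted p = 0.00108). The ATPase Psmc2 was lower in MstTg than in wt (-0.14 ± 0.04, adjusted p = 0.0105), and -0.10 in Mst1Gal3 against Gal3Ko (adjusted p = 0.0709). The scaffold genes Psmd1 and Psmd2 and the ATPases Psmc1, Psmc3, Psmc5 and Psmc6 passed the threshold in neither background. The base chaperone Psmd5 rose by 0.19 in both (adjusted p = 0.00293 and 0.00422), while Psmd9 and Psmd10 did not pass it.

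Of the 13 genes of the 20S rings, 1 was higher and 8 lower in MstTg than in wt, 61.5% lower against 26.8% of all genes, with a median log2 fold change of -0.19 (all genes 0.02). In Mst1Gal3 against Gal3Ko 1 was higher and 3 lower, 23.1% against 25.6% of all genes, with a median of -0.13 (all genes 0.01). Of the 17 genes of the base and lid, 6 were higher and 2 lower in MstTg than in wt, with a median of -0.01. These were 35.3% and 11.8%, against 28.2% and 26.8% of all genes. In Mst1Gal3 against Gal3Ko, 7 were higher and 1 lower, with a median of 0.01. These were 41.2% and 5.88%, against 26.9% and 25.6% of all genes. The rings were not tested against the base and lid. These counts hold on the TMM scale. Scaled by library totals, 4 ring genes were higher (Psma3, Psma5, Psma7 and Psmb1) and 2 lower (Psmb2 and Psmb7) in MstTg against wt, and 5 were higher (the same 4 and Psmb4) and 0 lower in Mst1Gal3 against Gal3Ko. On that scale the base and lid had 11 higher and 0 lower, and 15 higher and 1 lower, in the same comparisons. Psma1, Psma4, Psma6, Psmb3 and Psmc2 in MstTg against wt, and Psma4 in Mst1Gal3 against Gal3Ko, then had values above 0. The shares of all genes called by library totals are not given here. The 6 beta ring genes summed to 265 CPM ± 20.5 in MstTg and 313 ± 16.0 in wt, and to 290 ± 27 in Mst1Gal3 and 310 ± 18.3 in Gal3Ko.

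Psmb2 (chromosome 4, 126677630 to 126709714), a structural beta subunit, fell most among the ring genes. It had 21, 23.7 and 25.9 CPM in MstTg, against 30.6, 33.2 and 34.9 in wt, and 24.8, 27.2, 24.8, 26.7 and 25.4 CPM in Mst1Gal3, against 28.6, 32.7 and 36.8 in Gal3Ko. Neither pair of groups overlapped, and the changes were -0.48 ± 0.06 (adjusted p = 8.65e-09) and -0.35 ± 0.06 (adjusted p = 6.04e-06). Psmb7 (chromosome 2, 38588036 to 38644087), which holds the trypsin-like site, had 55.8, 60.1 and 64.7 CPM in MstTg, against 71.1, 77.5 and 82.9 in wt. In Mst1Gal3 it had 59.0, 64.9, 60.9, 70.2 and 65.0 CPM, against 68.3, 76.9 and 83.4 in Gal3Ko. Only replicate 4 of Mst1Gal3 reached into the range of Gal3Ko, and Psmb7 changed by -0.37 ± 0.05 (adjusted p = 1.78e-07) and -0.26 ± 0.05 (adjusted p = 7.38e-05).

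The remaining falls in the rings were smaller and were called mostly in MstTg against wt. Psmb6 (chromosome 11, 70525367 to 70527858), which holds the caspase-like site, had 38.1, 46.6 and 53.2 CPM in MstTg, against 50, 54.7 and 63.3 in wt (-0.30 ± 0.07, adjusted p = 8.51e-04). It had 49.5, 47.2, 44.9, 60.5 and 48.9 CPM in Mst1Gal3, against 51.3, 56.0 and 60.4 in Gal3Ko (-0.16 ± 0.08, adjusted p = 0.0836). Replicate 4 of Mst1Gal3 was above all Gal3Ko libraries, while the other 4 were below them. Psma2 (chromosome 13, 14613240 to 14674236), of the alpha ring, had 30.1, 31.1 and 33.6 CPM in MstTg, against 34.2, 37.9 and 41.2 in wt (-0.27 ± 0.05, adjusted p = 6.32e-05). It had 31.5, 33.1, 31.9, 36.6 and 34.3 CPM in Mst1Gal3, against 32.7, 36.3 and 39 in Gal3Ko (-0.12 ± 0.05, adjusted p = 0.0698). The groups were apart in the first comparison and overlapped in the other.

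Psmb3 (chromosome 11, 97703399 to 97713500), a structural beta subunit, had 19.7, 23.7 and 26.8 CPM in MstTg, against 23.8, 27.6 and 30 in wt (-0.24 ± 0.08, adjusted p = 0.011). In Mst1Gal3 it had 22.9, 22.8, 23.0, 30.3 and 28.5 CPM, against 25.9, 27.5 and 33.4 in Gal3Ko (-0.13 ± 0.08, adjusted p = 0.184). Both pairs overlapped. Psma4 (chromosome 9, 54950790 to 54958030), of the alpha ring, had 32.8, 34.8 and 35.4 CPM in MstTg, against 36.2, 38.6 and 43.9 in wt, which do not overlap (-0.19 ± 0.05, adjusted p = 0.00297). It had 32.8, 35.8, 33.7, 33.3 and 34 CPM in Mst1Gal3, against 33.9, 39.4 and 41.0 in Gal3Ko (-0.18 ± 0.05, adjusted p = 0.0058), and these overlap. Psma1 and Psma6 were lower in MstTg than in wt (-0.23 and -0.15, adjusted p = 0.00157 and 0.0275) and were -0.13 and -0.13 in Mst1Gal3 against Gal3Ko (adjusted p = 0.0833 and 0.0755). The call of Psma6 was lost without any 1 of MstTg 6 or 7 or wt 3 or 6 (-0.14 to -0.12, adjusted p = 0.0501 to 0.0914). It was also lost with library totals, without the mitochondrial genome, with a mean of at least 100 counts and with the replicate block. Without replicate 4 of Mst1Gal3 the count of genes lower in Mst1Gal3 than in Gal3Ko was 9 in place of 4. The edgeR fit then added Psma2 (-0.15, adjusted p = 0.0264), Psma6 (-0.17, adjusted p = 0.0163) and Psmb3 (-0.20, adjusted p = 0.0441). It also added Psmb6 (-0.23, adjusted p = 0.0106) and Psmc3 (-0.16 in place of -0.09, adjusted p = 0.0476). Without replicate 8 of Gal3Ko the count was 8.

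Psma5 (chromosome 3, 108256926 to 108279974) was the only gene of the rings that rose. It had 19.7, 21.4 and 23.6 CPM in MstTg, against 16.3, 16.9 and 18.8 in wt, and 22.6, 24.1, 19.8, 25.6 and 22.8 CPM in Mst1Gal3, against 15.3, 16.1 and 18 in Gal3Ko. Neither pair overlapped, and the rises were 0.33 ± 0.06 (adjusted p = 1.41e-05) and 0.50 ± 0.06 (adjusted p = 1.03e-08). Psma3, Psma7, Psmb1 and Psmb4 passed the threshold in neither background.

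**Figure D3:**
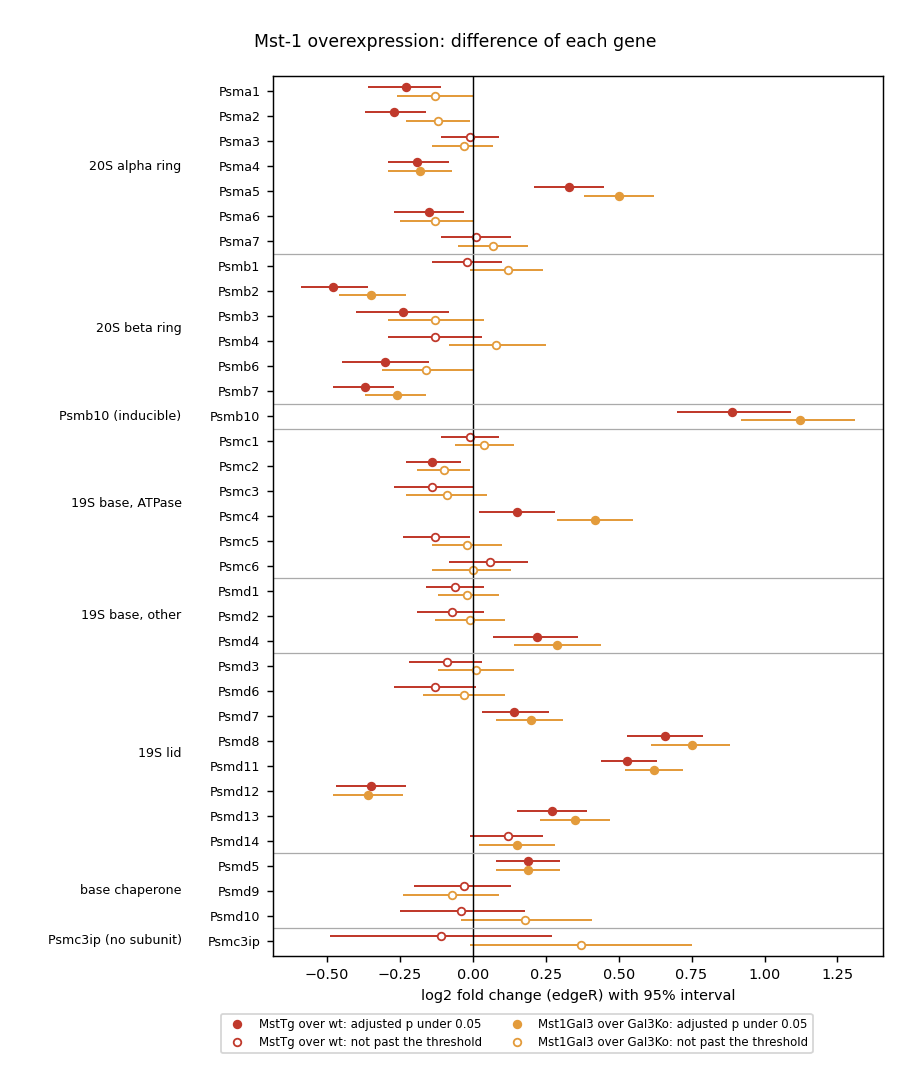
Log2 fold change of each gene with its 95% interval in MstTg over wt and in Mst1Gal3 over Gal3Ko, by role, with filled points where the adjusted p is under 0.05. Psmb10 stands at 0.89 and 1.12, Psmd8 at 0.66 and 0.75, and Psmb2 at -0.48 and -0.35.

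Over the 35 genes the pattern was similar in both backgrounds, which share no library. Of the genes called higher, 9 were called in both comparisons (Psma5, Psmb10, Psmc4, Psmd4, Psmd5, Psmd7, Psmd8, Psmd11 and Psmd13). Of those called lower, 4 were (Psma4, Psmb2, Psmb7 and Psmd12). The share of all genes called in both is not given here, so these counts do not set the 35 genes apart. The Pearson correlation of the log2 fold changes was 0.94 over the 35 genes and also 0.94 over all genes, across genes that are not independent. The groups did not overlap in 12 of the 35 genes in MstTg against wt (32.2% of all genes) and in 8 in Mst1Gal3 against Gal3Ko (31.1%). For the difference between the backgrounds (the interaction term, above 0 where the Mst-1 change was higher with the knockout), edgeR called 0 of the 35 genes (0.656% of all genes, 0.289% higher and 0.367% lower), and so did DESeq2 and limma-voom. At an unadjusted p under 0.05 there were 2, Psmc4 and Psma5.

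Psmb10 (chromosome 8, 105935735 to 105938444), which replaces Psmb7 at the trypsin-like site of the immunoproteasome, rose most of all 35. It had 26.8, 33.6 and 42.2 CPM in MstTg, against 17.2, 17.9 and 18.8 in wt, and 32.7, 33.4, 31.2, 45.3 and 33.0 CPM in Mst1Gal3, against 13.1, 16.2 and 19 in Gal3Ko. Every library with Mst-1 was above every library without it. The rise was 1.86-fold in MstTg (0.89 ± 0.09, adjusted p = 1.22e-09) and 2.17-fold in Mst1Gal3 (1.12 ± 0.09, adjusted p = 1.01e-11), and without replicate 4 of Mst1Gal3 the last was 1.01. Per kilobase of basic transcripts, Psmb10 was 32.9% ± 2.80 of the sum of Psmb10 and Psmb7 in MstTg and 17.1% ± 0.618 in wt, and 32.5% ± 2.27 in Mst1Gal3 and 15.7% ± 1.65 in Gal3Ko. With all annotated transcripts these shares were 52.6% in MstTg and 31.8% in wt, and 52.2% in Mst1Gal3 and 29.7% in Gal3Ko.

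The other inducible subunits, left out of the 35, did not follow the same course. Psmb8, which replaces Psmb5, was higher in MstTg than in wt by 0.27 (adjusted p = 0.0409) and lower in Mst1Gal3 than in Gal3Ko by -0.33 (adjusted p = 0.0245). Psmb9, which replaces Psmb6, passed the threshold in neither (0.14 and -0.09, adjusted p = 0.351 and 0.592). In Mst1Gal3 against MstTg, Psmb8 fell by 0.70 and Psmb9 by 0.45 on the log2 scale (adjusted p = 4.07e-04 and 0.041), while Psmb10 was 0.07 ± 0.09 (adjusted p = 0.759). Of 12 listed genes of antigen processing and interferon response, 9 were higher and 0 lower in MstTg than in wt (75% called, against 55% of all genes). In Mst1Gal3 against MstTg, 0 were higher and 10 lower (83.3%, against 4.89%), among them Irf7 (-1.99) and Ifit3 (-1.74). In Mst1Gal3 against Gal3Ko, 2 were higher and 2 lower (33.3%, against 52.5%).

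**Figure D4:**
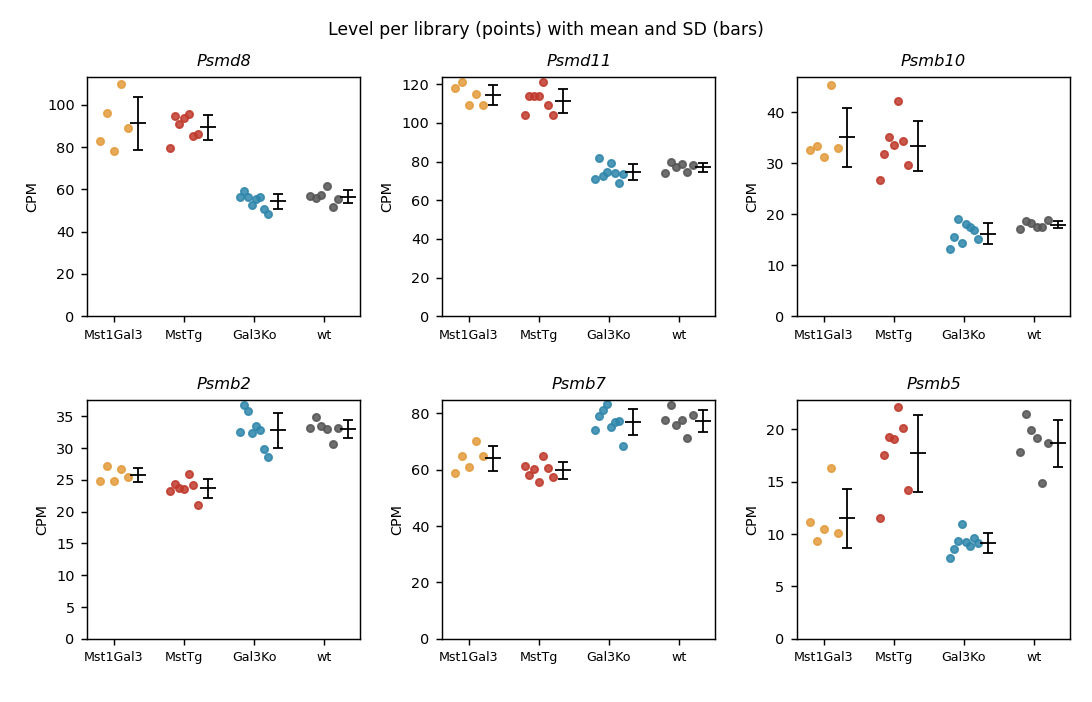
CPM of 6 genes in each library (points) with the mean and SD of the group (bars) for Mst1Gal3 (n = 5), MstTg (n = 7), Gal3Ko (n = 8) and wt (n = 6). Psmd8, Psmd11 and Psmb10 are high and Psmb2 and Psmb7 low in both groups with Mst-1, while Psmb5 is low in both groups with the knockout and only replicate 4 of Mst1Gal3 (16.3) lies inside the MstTg range.

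The proteasome genes were also followed where Psmb5 falls. Psmb5 (chromosome 14, 54614119 to 54618022), the subunit with the chymotrypsin-like site, lies 7.23 Mb from Lgals3, so that sequence carried along with the targeted allele cannot be told apart from loss of galectin-3. It had 11.2, 9.35, 10.5, 16.3 and 10.1 CPM in Mst1Gal3, against 11.5, 19.1 and 22.1 in MstTg, and 7.71, 9.22 and 11.0 in Gal3Ko, against 14.9, 18.9 and 21.5 in wt. Gal3Ko lay wholly below wt, and Mst1Gal3 overlapped MstTg. Psmb5 changed by -0.63 ± 0.13 in Mst1Gal3 (adjusted p = 0.00423) and -1.02 ± 0.12 in Gal3Ko (adjusted p = 1.09e-05), and by -0.82 ± 0.09 as the mean of both (adjusted p = 6.98e-07). Of its annotated exon bases, 12.1% also belong to Mir686, and how reads there were counted is not given in the sources used here. As a share of the 7 constitutive beta genes per kilobase of basic transcripts, Psmb5 was 4.73% ± 0.679 in Mst1Gal3 and 7.76% ± 1.02 in MstTg, and 3.52% ± 0.304 in Gal3Ko and 6.86% ± 0.621 in wt. With the lengths of all annotated transcripts the shares were 9.19% in Mst1Gal3 and 14.6% in MstTg, and 7% in Gal3Ko and 13.1% in wt, so the level of the share depends on the lengths used.

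None of the 35 genes was called where Psmb5 fell. The left-out inducible genes Psmb8 and Psmb9 were: both were lower in Mst1Gal3 than in MstTg, as given above, and in the mean of both knockout differences (-0.40 and -0.34, adjusted p = 0.00362 and 0.0362), but not in Gal3Ko against wt (-0.10 and -0.22, adjusted p = 0.954 and 0.829). The edgeR calls were 0 of 35 in Mst1Gal3 against MstTg (4.89% of all genes, 2.54% higher and 2.35% lower), 0 of 35 in Gal3Ko against wt (0.354%, with 0.177% in each direction) and 0 of 35 for the mean of both (2.81%, 1.16% higher and 1.65% lower). DESeq2 and limma-voom called 0 in each. At an unadjusted p under 0.05, edgeR's fit gave 3 genes in the first (Psmb4, Psmb6 and Psmc4), 1 in the second (Psmd10, edgeR adjusted p = 0.635) and 0 in the mean. The groups did not overlap in 0 of the 35 in Mst1Gal3 against MstTg (3.31% of all genes) and in 0 in Gal3Ko against wt (0.289%). The whole 95% interval of each of the 35 genes lay above that of Psmb5 in all 3 comparisons. The interval lay within -0.25 to 0.25 on the log2 scale for 28 genes in Mst1Gal3 against MstTg, for 32 in Gal3Ko against wt and for 33 in the mean. Psmd10 and Psmc3ip, counted least, had the widest intervals. For the 33 others the bounds reached from -0.20 (Psmc6) to 0.35 (Psmb4) in Mst1Gal3 against MstTg and from -0.34 (Psmb10) to 0.18 (Psmb3) in Gal3Ko against wt. In the mean, where opposite changes cancel, they reached from -0.18 (Psmb10) to 0.20 (Psmb6). Changes beyond these bounds lie outside the intervals of that comparison. Of the 35 genes, 24 were above 0 and 11 below in Mst1Gal3 against MstTg (54.5% of all genes above). In Gal3Ko against wt, 6 were above and 29 below (50.7% of all genes above).

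**Figure D5:**
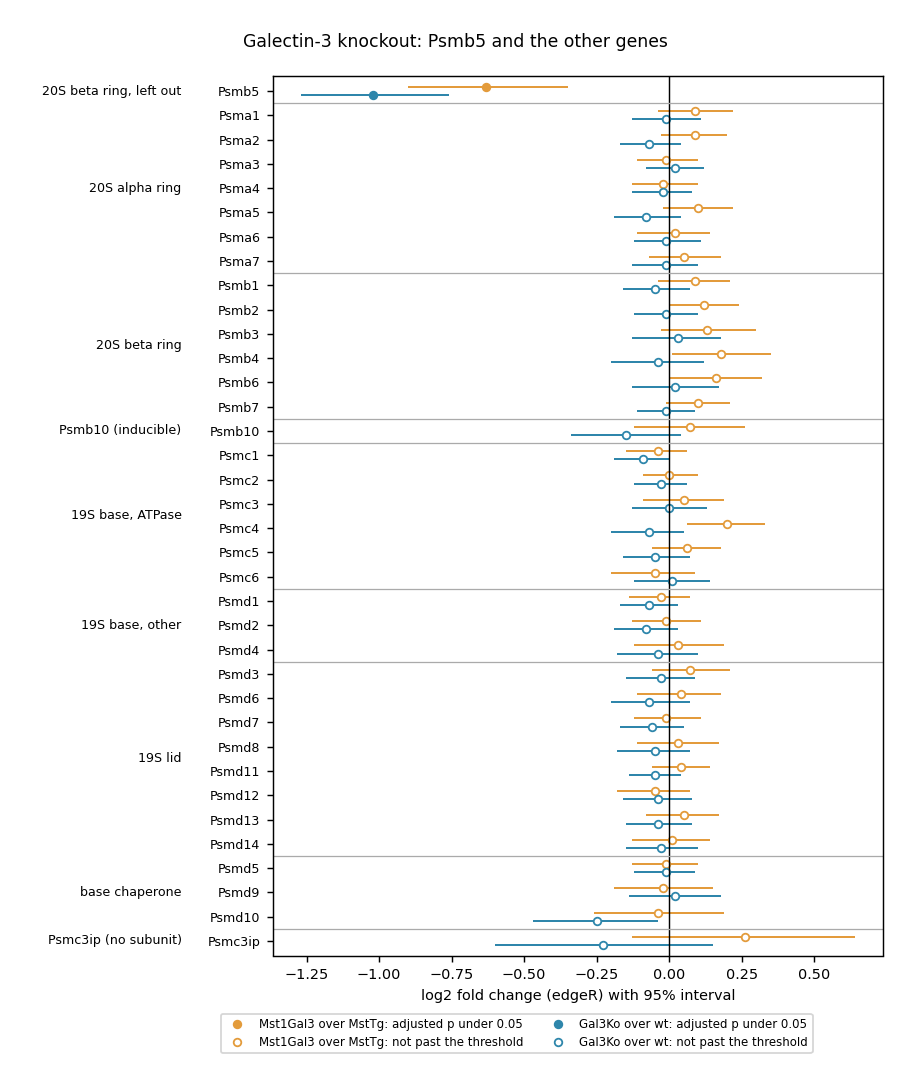
Log2 fold change with 95% interval of Psmb5 (top row) and of the 35 other genes in Mst1Gal3 over MstTg and Gal3Ko over wt, with filled points where the adjusted p is under 0.05. Psmb5 stands at -0.63 and -1.02, and no other gene is filled.

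The other active-site genes of the beta ring, Psmb6 and Psmb7, were 0.16 and 0.10 in Mst1Gal3 against MstTg and 0.02 and -0.01 in Gal3Ko against wt (adjusted p from 0.26 to 0.99). The 2 of the 35 genes that lie on chromosome 14 were not called either. Psmc6 (chromosome 14, 45329788 to 45349705), an ATPase gene 2.02 Mb from Lgals3, had 50.4, 55.6, 54.7, 62.8 and 58.8 CPM in Mst1Gal3, against 50.3, 58.8 and 65.6 in MstTg. In Gal3Ko it had 49.2, 57.2 and 63.8 CPM, against 52.4, 55.3 and 62.5 in wt. Psmd6 (chromosome 14, 14112174 to 14120984), a lid gene 33.25 Mb from Lgals3, had 35.4, 35.7, 34.1, 43.7 and 40.0 CPM in Mst1Gal3, against 33.3, 37.1 and 40.3 in MstTg, and 31.6, 38.3 and 43.0 CPM in Gal3Ko, against 37.1, 40.0 and 43.8 in wt. Both overlapped in each comparison, with -0.05 and 0.01 for Psmc6 and 0.04 and -0.07 for Psmd6 (adjusted p from 0.75 to 0.99).

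Psmc4 came nearest to a call, with 0.20 ± 0.07 in Mst1Gal3 against MstTg (adjusted p = 0.0767). It passed the threshold without replicate 5 of MstTg (0.24, adjusted p = 0.018), without replicate 3 of Mst1Gal3 (0.23, adjusted p = 0.0491), without the 6 libraries with atrial genes (0.27, adjusted p = 0.0133) and among genes with a mean of at least 100 counts (0.19, adjusted p = 0.0461). Its value in Gal3Ko against wt was -0.07 (adjusted p = 0.92).

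Genes that work with the proteasome were read against the 55 and 52.5% of all genes called in the same comparisons (MstTg against wt, Mst1Gal3 against Gal3Ko). The shares called were 80 and 60% of the activators and inhibitor, 57.1 and 71.4% of the Nrf factors and their processing, 50 and 25% of the shuttles and unfoldase, and 40 and 40% both of the core assembly chaperones and of the other associated proteins. Of 5 genes of activators and the inhibitor Psmf1, 4 were lower in MstTg than in wt and 3 in Mst1Gal3 than in Gal3Ko. Psme1, a subunit of the PA28 activator that opens the core gate, averaged 33.6 CPM ± 2.24 in MstTg and 58.1 ± 3.35 in wt (-0.79, adjusted p = 1.9e-14), and 33.4 ± 2.57 in Mst1Gal3 and 55.7 ± 1.97 in Gal3Ko (-0.74, adjusted p = 4.2e-13). Its partner Psme2 changed by -0.33 and -0.23, and the large activator Psme4 by -0.29 and -0.37. Of 5 core assembly chaperones, Psmg1 and Psmg2 were lower in MstTg (-0.32 and -0.29), and Pomp was higher (0.17) and Psmg1 lower (-0.24) in Mst1Gal3 than in Gal3Ko. Of 5 other subunits and associated proteins, the deubiquitinase Usp14 (-0.38 and -0.31) and the ligase Ube3c (-0.31 and -0.25) were lower in both.

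Of 7 genes of the Nrf factors, which drive proteasome genes, and of their processing, 4 were higher in both backgrounds and 1, Ddi2 (-0.13, adjusted p = 0.0481), was lower in Mst1Gal3 than in Gal3Ko. Nfe2l1, the factor that raises proteasome genes when the proteasome is blocked, was higher by 0.19 and 0.32 (adjusted p = 0.0109 and 1.13e-04). The small Maf partners Mafk (0.91 and 0.89), Maff (1.03 and 1.02) and Mafg (0.22 and 0.28) rose too, and Nfe2l2 passed the threshold in neither (-0.05 and -0.09). Of 8 ubiquitin shuttles and genes of the Vcp unfoldase, 0 were higher and 4 lower in MstTg, and 0 and 2 in Mst1Gal3. In both knockout comparisons edgeR, DESeq2 and limma-voom called 0 of the 30 genes of these 5 lists. At an unadjusted p under 0.05 there were 0 in Mst1Gal3 against MstTg, where the smallest adjusted p was 0.293 (Maff), and 2 in Gal3Ko against wt, where it was 0.696 (Vcp).

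Markers of cell types moved with Mst-1 beside these genes. Of all genes, 28.2% were higher and 26.8% lower in MstTg than in wt, and 26.9% and 25.6% in Mst1Gal3 than in Gal3Ko. All 8 fibroblast markers were higher in both comparisons, with summed levels of 2987 to 3621 CPM in MstTg and 834 to 1146 in wt, and 2304 to 3033 in Mst1Gal3 and 806 to 992 in Gal3Ko. Of 8 cardiomyocyte markers, 6 were lower and 1 higher in MstTg (34465 to 48126 CPM, against 46586 to 52260 in wt), and 5 lower and 1 higher in Mst1Gal3 (41984 to 54257 CPM, against 49765 to 59266 in Gal3Ko). Of 7 endothelial markers, 6 were lower in each comparison (542 to 644 CPM in MstTg and 733 to 907 in wt, and 556 to 598 in Mst1Gal3 and 739 to 903 in Gal3Ko). No marker of these lists was at 0 in any library. Their part in the changes of the proteasome genes was not tested, and in whole-tissue RNA fewer cells of a type and less RNA per cell cannot be told apart.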

How the data were processed

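The authors deposited raw read counts per gene, whole numbers without normalization, for 26 libraries of left ventricle. Per the labels' protocols, total RNA was depleted of ribosomal RNA and made into directional libraries. Per the submitters' processing notes, the processing involved STAR and featureCounts, bcl2fastq 2.19.1.403, and GRCm38 as the genome build. How multi-mapping reads were counted, on which strand, with which annotation and with which versions of the aligner and counter is not given in the sources used here, so reads shared with pseudogene copies or overlapping genes can be split in ways that cannot be checked. Groups were taken from the sample titles.

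The count table held 15249 genes with a lowest mean of 10.0 counts per library. Counts were tested with edgeR 4.0.16 in R 4.3.3: TMM factors, filterByExpr (which removed 0 genes), robust quasi-likelihood fit of 4 group means with 22 residual degrees of freedom, common biological coefficient of variation 0.114, two-sided, Benjamini-Hochberg over all genes, threshold 0.05. All 35 genes passed the filter. The alternatives used DESeq2 1.42.0 and limma 3.58.1. The steps were also tested on simulated data. Positions and exon lengths came from GENCODE M21 (15195 identifiers matched and 54 did not), promoter windows from RefSeq (GRCm38.p6). Counts of libraries of a group differed by a chi-square of at least 4.91 per degree of freedom, so no library was treated as a duplicate. Intervals cover 95%. The genes, the lists and the tests were chosen with earlier results of these data known. Genes described library by library are Psmb5, Psmb10, those on chromosome 14 and, per comparison, up to 6 called genes with the largest change in each direction. One list of genes related to the proteasome is not reported here.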

Additional observations from a re-analysis of the deposited data

Results flagged for a closer look

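Within each group, a library was marked where its gap to the nearest other library took up more of the group's range than chance gives in about 1 of 20 groups. This marked 13 of 144 combinations of gene and group (the 35 genes and Psmb5). Replicate 4 of Mst1Gal3 accounted for 6 of them and was the highest each time: 118 CPM for Psmc3 (others 93.5 to 98.6), 66.2 for Psmb1 (52.2 to 56.2), 82.4 for Psmb4 (60.5 to 66.4), 45.3 for Psmb10 (31.2 to 33.4), 1.69 for Psmc3ip (0.912 to 1.14) and 16.3 for Psmb5 (9.35 to 11.2). The same library was highest for 27 of the 35 genes. Without it Psmb5 was -0.78 in Mst1Gal3 against MstTg in place of -0.63, and Psmb10 was 1.01 in Mst1Gal3 against Gal3Ko in place of 1.12.

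The others were spread over libraries. Replicate 2 of Mst1Gal3 was highest for Psmd1 with 89.2 CPM (others 83.8 to 85.2). In Gal3Ko, replicate 5 was highest for Psmc1 with 65.6 CPM (57.1 to 61.1), replicate 4 highest for Psmb3 with 33.4 (25.9 to 28.5) and replicate 7 lowest for Psmd5 with 13 (14.8 to 16.2). In wt, replicate 6 was highest for Psma5 with 18.8 CPM (16.3 to 17.2), replicate 2 highest for Psmd10 with 7.79 (5.13 to 5.92) and replicate 1 lowest for Psmd9 with 9.01 (11.3 to 12.4).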

How the results depend on the processing

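The counts of calls, the medians and the log2 fold changes of named genes were recomputed with RLE size factors, library totals, library sizes without the mitochondrial genome, no filter (the same values, since the filter removed 0 genes), a mean of at least 100 counts, DESeq2, limma-voom, the compared groups alone, the replicate number as a block, no genes of chromosome 14, no libraries with atrial genes over 30 CPM, and without each library in turn. Of the 19 calls in MstTg against wt, 9 held in every alternative run (Psma5, Psmb2, Psmb7, Psmb10, Psmd4, Psmd5, Psmd8, Psmd11 and Psmd13), as did 10 of the 14 in Mst1Gal3 against Gal3Ko (Psma5, Psmb10, Psmc4, Psmd4, Psmd5, Psmd7, Psmd8, Psmd11, Psmd12 and Psmd13) and the fall of Psmb5 in its 3 comparisons. Each Mst-1 call was tried in 37 alternatives and Psmb5 in 36, 36 and 35, since it could not be fitted without chromosome 14 or, for the mean, with 2 groups alone. Levels per kb, shares and coefficients of variation were not recomputed. Library totals gave 18 higher and 2 lower in MstTg against wt, 24 higher and 1 lower in Mst1Gal3 against Gal3Ko, and 1 lower (Psmd1, -0.12, adjusted p = 0.0296) in the mean knockout difference. This scaling moves all genes together. It turned Psma1 (0.01), Psma4 (0.06), Psma6 (0.10), Psmb3 (0.01) and Psmc2 (0.11) in MstTg against wt, and Psma4 (0.06) in Mst1Gal3 against Gal3Ko, none of which then passed the threshold (adjusted p from 0.0662 to 0.938).

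Leaving out single libraries gave 7 to 9 higher and 9 to 13 lower in MstTg against wt, 9 to 11 higher and 4 to 9 lower in Mst1Gal3 against Gal3Ko, and 0 to 1 higher in Mst1Gal3 against MstTg. The last was also 1 (Psmc4) with a mean of at least 100 counts and without the libraries with atrial genes. The cause of these moves was not tested. No label says that a replicate number marks a pair or batch. Of 34 pairs with the same number in 2 groups, 11 had deviations that correlated above 0.1 (-0.34 to 0.29, median 0.02). For Gal3Ko with wt the values ran from -0.02 to 0.24. Libraries with different numbers were not compared, so these correlations cannot decide whether the numbers pair the libraries. With the replicate block 8 genes were lower in Mst1Gal3 against Gal3Ko in place of 4. With groups of 5 to 8 libraries, changes smaller than the intervals given cannot be told from 0.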

Other observations

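The Mst-1 difference was higher in the galectin-3 knockout background than outside it for 30 of the 35 genes, with a median difference of 0.09 on the log2 scale (all genes 0.01), and no single gene passed the threshold of the interaction. Without replicate 4 of Mst1Gal3 the median was 0.05. Over all genes 52.5% were above 0. The smallest adjusted p was 0.172 (Psmc4). The genes share libraries, so this is a description.

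Of 7 markers of smooth muscle and pericytes, 1 was higher and 2 lower in MstTg than in wt (42.9% called, against 55% of all genes). In Mst1Gal3 against Gal3Ko, 3 were higher and 2 lower (71.4%, against 52.5%). Cspg4 was higher (1.91 and 2.11), and Rgs5 (-1.04 and -0.94) and Kcnj8 (-1.03 and -0.81) lower, in both, and Acta2 (0.97) and Tagln (0.71) were higher in Mst1Gal3 than in Gal3Ko. Of 5 atrial markers, Dkk3 (2.71 and 1.44) and Stard10 (0.25 and 0.72) were higher in both. The others, Myl7, Myl4 and Sln, were called in neither. The lowest value among the 5 was 0.10 in MstTg against wt and -0.72 in Mst1Gal3 against Gal3Ko. The 2 lymphocyte markers measured did not pass the threshold in either comparison. Of 8 macrophage markers, Cd68 was higher (1.11 in MstTg against wt, 1.47 in Mst1Gal3 against Gal3Ko) and Cd163 lower (-0.85 and -0.54) by edgeR, and of 5 markers of red blood cells 0 were called by edgeR in either, 0 also at an unadjusted p under 0.05. The summed level of the red blood cell markers ranged from 9.06 to 200 CPM in Mst1Gal3, 17.7 to 184 in MstTg, 27.5 to 383 in Gal3Ko and 34 to 335 in wt.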
